A study of Mus musculus with 6 samples.

Results

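Imprinted genes are expressed mainly or only from the copy inherited from 1 parent, and 40 of them, chosen by gene symbol with earlier results of these data known, were followed in fetal testes that lack prostaglandin D2 synthesis. Of these, 38 were listed among the 16862 genes of the deposited table, and 37 had values high enough to be tested. Rasgrf1 and Snrpn were not matched to a row by symbol and were not analysed here. Calcr, the calcitonin receptor, was listed at 7.4 or less in each library and was not tested. The data are RNA sequencing of E13.5 male gonads of C57BL/6 mouse embryos, the stage named by days after mating. The wild-type group had 3 libraries, numbered 1, 3 and 4 in the labels, and the knockout group had 3, numbered 5, 7 and 8, from L/H-Pgds-/- embryos that lack both the L and the H form of prostaglandin D synthase. The labels speak of different littermates and give no litter, batch or pairing, and they do not say whether gonads were pooled, so the p-values measure the spread between these libraries. No library held reads sorted by parental allele, so every value is the sum of both copies.

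Imprinting rests on DNA methylation that is laid down differently in egg and sperm at control regions, each of which governs a cluster of neighbouring genes. Body cells keep these marks for life, while germ cells erase them around the time they settle in the gonad and write new ones according to the sex of the embryo. In the male the rewriting starts in fetal germ cells after they stop dividing. Many paternally expressed genes promote fetal growth and many maternally expressed genes restrain it. The fetal gonad is mostly somatic tissue, so bulk values mix cells that hold imprints with germ cells that do not.

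By the allele usually expressed, the 38 genes comprised 18 paternally expressed genes, 17 maternally expressed genes and 3 (Gnas, Grb10 and Ddc) whose allele depends on tissue or transcript. Several of the maternal genes, such as Cd81, Tssc4, Nap1l4, Ascl2 and Dcn, are known to be imprinted mainly in placenta, and Ube3a mainly in neurons. The classes are textbook assignments and were not measured in these gonads.

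The promoter windows of 4 genes are shown because they belong to the members with the strongest rises (Peg3, Zim1) and to members with some of the deepest falls (Dlk1, Nnat). They are RefSeq windows on GRCm38.p6, each running from 250 bases before to 50 after an annotated start, written 5′ to 3′ along the gene, with each CpG, the dinucleotide that carries DNA methylation, in capitals.
Peg3, chr7:6730370-6730669, minus strand: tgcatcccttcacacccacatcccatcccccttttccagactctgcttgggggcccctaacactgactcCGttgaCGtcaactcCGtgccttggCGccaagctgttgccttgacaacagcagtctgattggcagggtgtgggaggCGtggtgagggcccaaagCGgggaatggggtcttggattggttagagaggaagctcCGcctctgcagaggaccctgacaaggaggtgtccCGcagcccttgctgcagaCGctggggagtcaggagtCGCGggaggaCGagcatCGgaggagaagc
Zim1, chr7:6696383-6696682, minus strand: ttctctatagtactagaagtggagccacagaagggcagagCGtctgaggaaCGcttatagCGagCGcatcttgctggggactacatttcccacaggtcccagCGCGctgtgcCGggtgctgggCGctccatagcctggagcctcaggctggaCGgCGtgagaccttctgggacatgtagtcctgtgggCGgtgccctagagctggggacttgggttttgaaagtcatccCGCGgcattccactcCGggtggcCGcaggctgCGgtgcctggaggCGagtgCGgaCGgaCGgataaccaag
Dlk1, chr12:109452573-109452872, plus strand: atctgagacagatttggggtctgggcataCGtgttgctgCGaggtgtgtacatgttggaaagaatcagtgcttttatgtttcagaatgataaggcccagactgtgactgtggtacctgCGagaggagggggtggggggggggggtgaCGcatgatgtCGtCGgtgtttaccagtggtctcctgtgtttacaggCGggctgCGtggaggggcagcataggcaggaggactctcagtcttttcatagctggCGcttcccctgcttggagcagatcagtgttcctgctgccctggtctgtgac
Nnat, chr2:157559828-157560127, plus strand: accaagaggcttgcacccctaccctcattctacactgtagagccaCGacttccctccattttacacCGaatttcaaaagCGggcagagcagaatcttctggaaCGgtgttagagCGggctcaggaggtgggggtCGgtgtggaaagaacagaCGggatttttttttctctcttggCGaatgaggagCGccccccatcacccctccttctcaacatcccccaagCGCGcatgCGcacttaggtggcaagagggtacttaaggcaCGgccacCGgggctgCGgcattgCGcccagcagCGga
The Peg3 window held 13 CpGs, the Zim1 window 20, the Dlk1 window 9 and the Nnat window 17. The median was 7 over all 32851 windows and 15 over the 49 windows matched to the imprinted genes. At least as many CpGs were held by 37.9% of all windows for Peg3, 26.5% for Zim1, 45.8% for Dlk1 and 31.4% for Nnat. The Peg3 window shares 263 bases with that of Usp29, which is read in the opposite direction on the plus strand. A search for TGACGTCA, the palindromic cyclic AMP response element, chosen after the Peg3 window had been read, found it in the windows of Peg3, Usp29 and Meg3 and in 1.79% of all windows. In the Peg3 window its first base lies 178 bases before the start, inside the stretch shared with Usp29. GCCATNTT, a core bound by YY1 and searched on both strands, was found in the windows of Mkrn3 and Ube3a and in 6.05% of all windows. A match to these letters is a description of the sequence and not a binding site. Windows were matched for 32 of the 40 genes.

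Deposited values are upper-quartile normalised pseudo-counts, which are fractional and not reads, so the depth is unknown and no counting error can be given. They summed to between 21657342 and 23734462 in a library. Ptgds, which encodes the L form, held 6560 to 8712 in wild type and 2.94 to 15.2 in knockout, as its label requires. Hpgds, which encodes the H form, was higher in knockout, at 49.2 ± 5.21 and 92.9 ± 9.32 (SD, n = 3 each). The deleted part of Hpgds is not given in the labels, so its value does not check that side of the genotype. Markers of Sertoli cells, fetal Leydig cells and germ cells were present in each library, and their summed values overlapped between the groups. At an adjusted p below 0.05 in limma, Ddx4 of germ cells was higher in knockout (means 2709 and 3800). Its libraries overlapped, with wild-type library 1 at 3204 and knockout library 8 at 3149. The other germ cell markers did not pass. Of these, Dazl had a higher mean in knockout, and Pou5f1 (4695 and 3776) and Mael (1172 and 707) had lower means. Hsd3b1 of fetal Leydig cells was lower at that threshold (12806 and 10255) but did not pass without wild-type library 1. No Sertoli marker passed. Amh (63893 and 49264) made up most of the Sertoli sum. Dhh also had a lower mean in knockout, and Sox9 and Dmrt1 had higher means. Of the other lists, 4 did not overlap, but in each of them 1 marker alone passed that threshold. Csf1r (macrophages), Wnt4 (ovary) and Tubb3 (neural crest and neurons) were lower in knockout, and Kdr (endothelium) was higher. Csf1r did not pass without wild-type library 1. Wnt4, with means of 3807 and 2183, made up most of the ovary sum. Ptprc of macrophages and Elavl4 of neurons had higher means in knockout, against the direction of their sums. Summed markers of macrophages were 532 to 719 in wild type and 427 to 444 in knockout, those of ovary 3534 to 4088 and 2120 to 2379, those of neural crest and neurons 1518 to 1557 and 1150 to 1421, and those of endothelium 4066 to 5764 and 5769 to 6072. No marker of these lists in the table was under 1 in all 6 libraries, and their part in the changes of the imprinted genes was not tested. Wild-type library 1 stood apart: its summed value of 4 skeletal muscle markers (Myog, Myh3, Ttn, Acta1) was 17390, against 187 to 357 in the other 5 libraries. It was the highest of the 6 libraries for 13 of the 37 tested genes (35.1%) and for 22.4% of all tested genes. Values without it are given beside the results it moves most.

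Among the 37 tested genes, 8 rose and 8 fell in the knockout at an adjusted p below 0.05 (limma on log2 of the value plus 1, Benjamini-Hochberg adjustment over all 15116 tested genes). Over all tested genes 34.3% were called, 17.3% higher and 17% lower, while of the 37 genes 21.6% were higher and 21.6% lower. The libraries of the groups did not overlap for 22 of the 37 genes, 11 above and 11 below wild type, beside 50.3% of all tested genes (24.7% above and 25.6% below). The median log2 change was 0.01 for the 37 genes and -0.03 for all tested genes. Without wild-type library 1, 10 of the 37 genes were higher and 7 lower, where 29.8% of all genes were called, 15.5% higher and 14.3% lower. Without wild-type library 4, 5 were higher and 7 lower, where 20.1% of all genes were called, 10.8% higher and 9.24% lower.

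Both parental classes moved in both directions. Of 18 paternally expressed genes tested, Peg3, Mkrn3, Peg10 and Impact rose, Dlk1, Nnat, Igf2, Sgce and Ndn fell, and 9 did not pass. Of 16 maternally expressed genes tested, Zim1, Ube3a, Ppp1r9a and Igf2r rose, H19, Tssc4 and Cd81 fell, and 9 did not pass. The median log2 change was 0.19 in the paternal class and -0.21 in the maternal class, and 0.36 and 0.03 without wild-type library 1. Without that library 6 paternal genes were higher and 4 lower (33.3% and 22.2%), beside 15.5% and 14.3% of all genes. Without wild-type library 4 or knockout library 5 the number higher was 2. Over all genes, 3032 and 3639 were called in these 2 settings, against 5180 with all libraries. None of the 3 genes with either allele passed, at an adjusted p of 0.0717 for Gnas, 0.0783 for Ddc and 0.17 for Grb10. The classes were not tested against each other.

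**Figure D1:**
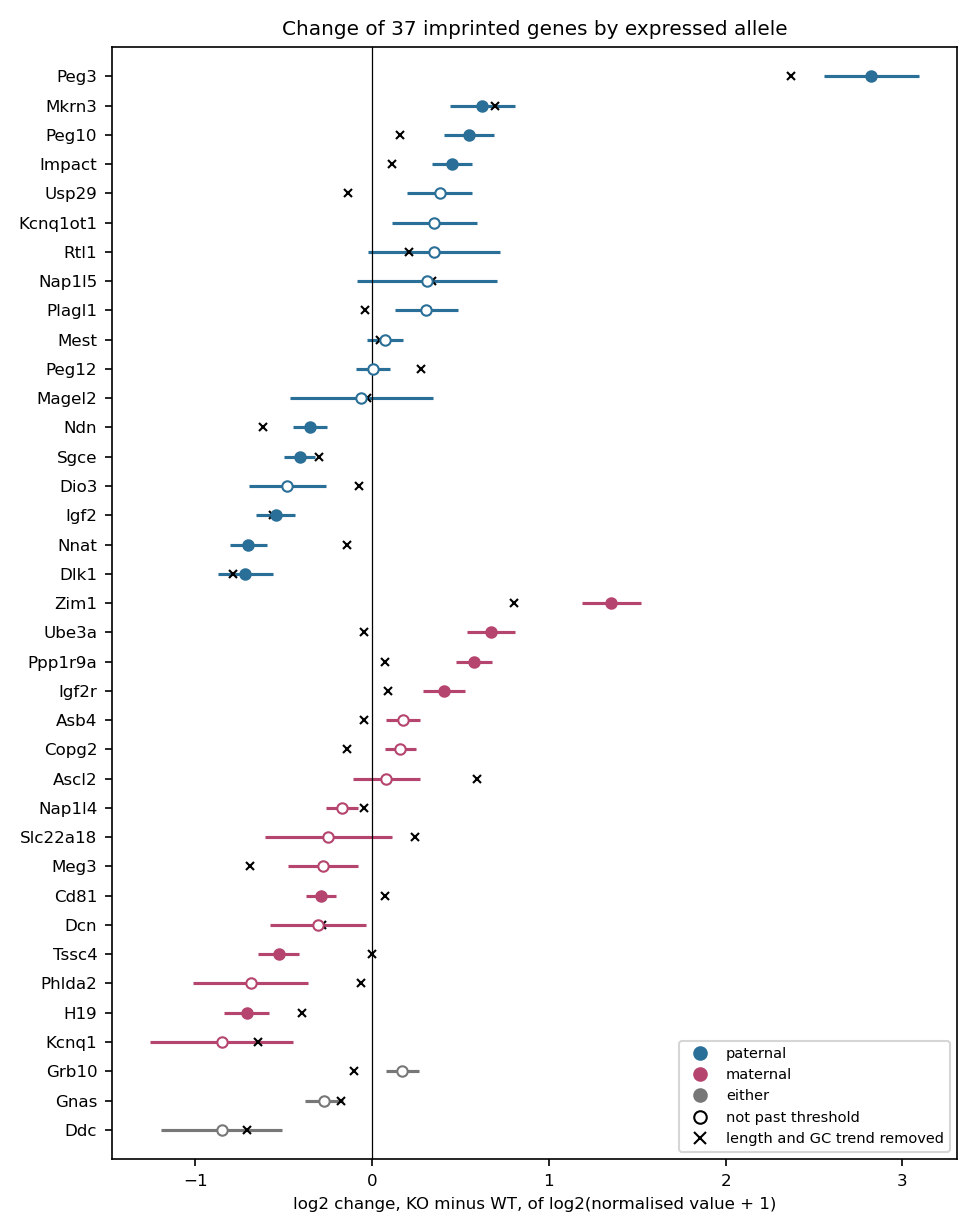
Log2 change (knockout minus wild type, of the normalised value plus 1) of the 37 tested imprinted genes on the horizontal axis, 1 gene a line, coloured by the allele usually expressed. Filled points passed the threshold, bars are standard errors, and crosses are the changes after a trend on length and GC of the transcript had been taken out (36 genes). Peg3 lies farthest to the right at 2.82, and both colours have points on either side of 0.

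The length and base composition of a transcript moved with its change. A smooth fit on both properties took up 41.8% of the spread (variance) of log2 changes over all genes that could be matched, which are not independent replicates. Among the imprinted genes, the median transcript length was 8194 nt for those that rose and 2031 nt for those that fell, and the median GC content was 46.2% and 54.7%. The same medians over all called genes were 5191 and 1710 nt, and 45.4% and 55.4%. After the trend was removed from each library, 3 of 36 imprinted genes rose and 4 fell, beside 5.57% and 5.75% of all genes (11.3% in all). With wild-type library 1 also left out, 4 rose and 5 fell, beside 5.31% and 6.78% of all genes (12.1% in all). Of the 16 calls, those of Peg3, Zim1, Mkrn3, Dlk1, Igf2 and Ndn remained in the same direction with the trend removed and all libraries in, and H19 joined these 6 with library 1 left out. For Ndn the length used, 3694 nt, is longer than the whole span of the gene in the deposited table, so its value with the trend removed is uncertain. The trend and the genotype cannot be told apart, since the trend runs between the groups.

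**Figure D2:**
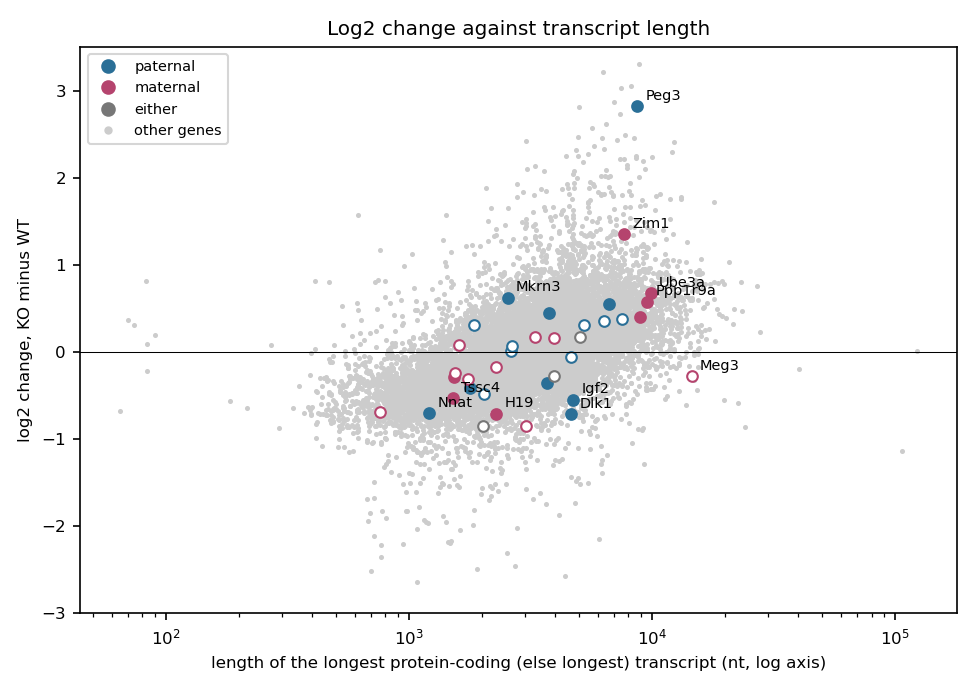
Log2 change (knockout minus wild type) against the length of the longest protein-coding transcript, or of the longest transcript where a gene has no protein-coding one (nt, log axis). Grey points are 14600 genes, 2 more lie outside the vertical axis, and coloured points are imprinted genes, filled where they passed the threshold. Changes go up from left to right, Peg3 and Zim1 lie above most genes of their length, and Dlk1, Igf2 and Meg3 lie low for theirs.

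The largest changes lay in the Peg3 domain, a cluster near the start of chromosome 7 that holds the paternally expressed Peg3 and Usp29 and the maternally expressed Zim1. Peg3, an imprinted zinc finger protein, spans 6658671 to 6683130 of that chromosome in mm9 (NCBI gene 18616). It held 367, 733 and 317 in wild-type libraries 1, 3 and 4 and 2767, 2774 and 3962 in knockout libraries 5, 7 and 8. The groups were far apart, and the lowest knockout library was above the highest wild-type library by more than the whole wild-type range. The log2 change was 2.82 (SE 0.27, adjusted p = 0.000744), the 6th highest among all 15116 genes, and the ratio of means was 6.71. It was 2.69 without wild-type library 1 and 2.37 with the length and GC trend removed (adjusted p = 0.00305).

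Zim1, a zinc finger gene next to Peg3 that is expressed from the other parental allele, rose as well. It spans 6628154 to 6649143 of chromosome 7 (NCBI gene 22776). Its values were 122, 139 and 100 in wild type and 310, 283 and 327 in knockout. Every knockout library was above every wild-type library, with a ratio of means of 2.55. The log2 change was 1.35 (SE 0.17, adjusted p = 0.00126), and 0.80 with the trend removed (adjusted p = 0.0135). Usp29, a deubiquitinase gene whose promoter window overlaps that of Peg3, held 95.7, 80.2 and 88.8 in wild type and 124, 120 and 102 in knockout. The knockout libraries were all higher, but the log2 change of 0.38 (SE 0.18) did not pass (adjusted p = 0.132), and it was -0.14 with the trend removed. Side by side, the log2 changes of these neighbours were 2.82 for Peg3 and 0.38 for Usp29, and the difference between them was not tested.

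**Figure D3:**
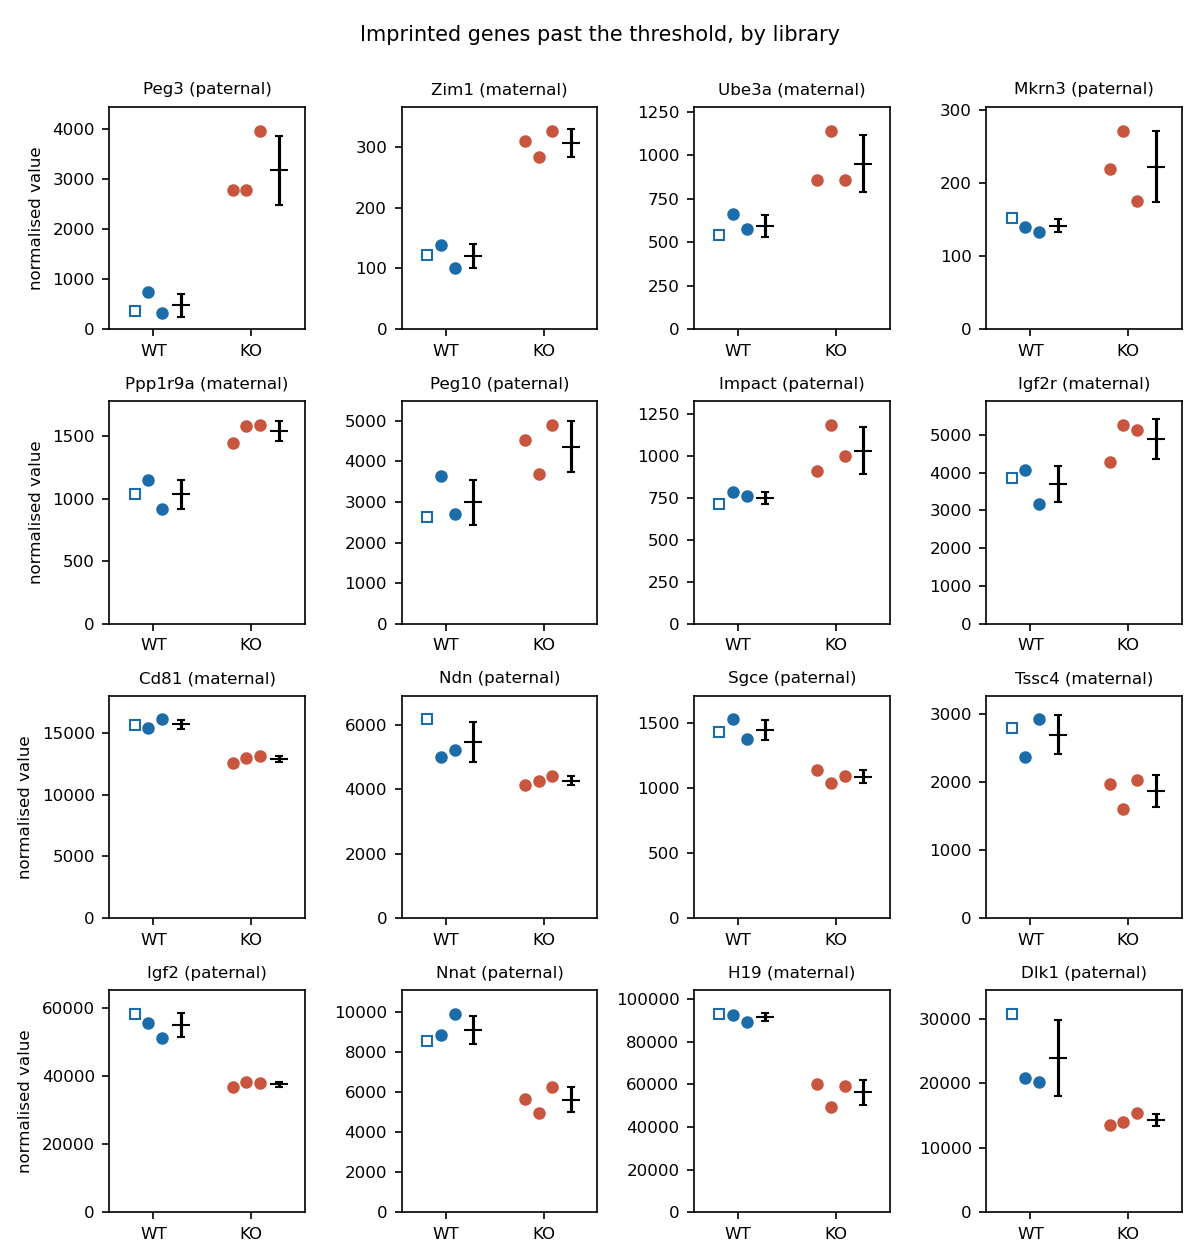
Normalised value (vertical axis, from 0) in each library for the 16 imprinted genes past the threshold, ordered from the highest rise to the deepest fall, with the allele usually expressed in the panel title. Blue marks are wild type, with library 1 as an open square, red marks are knockout, and black bars are mean ± SD (n = 3). In each panel the groups do not overlap. Library 1 lies above the other wild-type libraries for Dlk1, Ndn, Mkrn3, Igf2 and H19, with the largest gaps in proportion for Dlk1 and Ndn.

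In the Igf2 growth axis, Igf2 and H19 fell and Igf2r rose. Igf2 is a fetal growth factor expressed from the paternal allele, H19 is a long noncoding RNA made from the maternal allele of the same cluster, and Igf2r is a maternally expressed receptor that carries Igf2 to the lysosome for breakdown. Igf2 (chromosome 7, 149836673 to 149846940) held 58342, 55677 and 51278 in wild type and 36884, 38332 and 37888 in knockout. The knockout libraries lay close together and below all wild-type libraries. The log2 change was -0.55 (SE 0.11, adjusted p = 0.00473) and became -0.56 once the trend was removed (adjusted p = 0.0109).

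H19 (chromosome 7, 149761437 to 149764051) held 92933, 92268 and 89092 in wild type and 59943, 49441 and 59031 in knockout. The wild-type libraries lay close together, and each was above each knockout library. The log2 change was -0.71 (SE 0.13, adjusted p = 0.00313). Removing the trend gave -0.40, at an adjusted p of 0.0505, and -0.42 with library 1 also left out (adjusted p = 0.0274). Both genes of this cluster were therefore lower, although they are expressed from opposite alleles. Their values are among the highest in the table, and quantile normalisation, which forces the top of each library to equal values, gave changes of -0.30 for Igf2 (adjusted p = 0.0835) and -0.33 for H19 (adjusted p = 0.107).

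Igf2r (chromosome 17, 12875272 to 12962572) held 3852, 4077 and 3170 in wild type and 4280, 5267 and 5140 in knockout. The lowest knockout library was just above the highest wild-type library. The log2 change of 0.41 (SE 0.12, adjusted p = 0.0228) was 0.30 without wild-type library 4 (adjusted p = 0.0986), 0.35 without knockout library 7 (0.0646) and 0.37 without knockout library 8 (0.0684). Removing the trend left 0.09 (adjusted p = 0.527). The noncoding Airn gene overlaps Igf2r in the table, Igf2as overlaps Igf2, and the same holds for Nespas and Gnas, Blcap and Nnat, A230073K19Rik and Ube3a, R74862 and Cd81, Mir433 and Rtl1, and 1700042O10Rik and Ddc. Strand use in the counting is not given in the sources used here, so reads of such overlapping genes may not be told apart.

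In the Dlk1-Dio3 cluster of chromosome 12, paternally expressed Dlk1 fell and its maternally expressed neighbour did not pass. Dlk1 encodes a transmembrane protein related to Notch ligands and is made by fetal endocrine and mesenchymal cells. It spans 110691033 to 110701546 and held 30789, 20818 and 20290 in wild type and 13565, 14017 and 15442 in knockout. Wild-type library 1 was the highest, and the other wild-type libraries were still above all knockout libraries. The log2 change was -0.72 (SE 0.15, adjusted p = 0.00639), -0.52 without wild-type library 1 (adjusted p = 0.00651) and -0.79 with the trend removed (adjusted p = 0.0092). Quantile normalisation gave -0.43 (adjusted p = 0.0725). The summed values of 4 fetal Leydig cell markers ranged from 38120 to 59530 in wild type and from 28270 to 39890 in knockout, and their part in the change of Dlk1 was not tested. In bulk gonads, fewer cells of a type and less RNA per cell cannot be told apart.

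Meg3, a long noncoding RNA, held 17056 in wild-type library 1, 9878 and 9269 in the other wild-type libraries and 9005 to 10551 in knockout. Apart from library 1, the groups overlapped. Its log2 change was -0.28 (adjusted p = 0.3) with all libraries and 0.00 without library 1. Removing the trend gave -0.69 (adjusted p = 0.0249), and -0.47 with library 1 also left out (adjusted p = 0.00584). At 14548 nt its transcript is the longest of the 36 tested imprinted genes with a length. Rtl1, derived from a retrotransposon, held 86.4 in wild-type library 1, 35.3 and 32.0 in the other wild-type libraries and 43.9 to 71.3 in knockout. Its log2 change was 0.35 (adjusted p = 0.492) with all libraries, 0.80 without library 1 (adjusted p = 0.0472) and 0.093 without wild-type library 4 (adjusted p = 0.883). Removing the trend and library 1 together gave 0.64 (adjusted p = 0.148). Dio3, which inactivates thyroid hormone, stood at 105 ± 22.6 and 74.1 ± 9.24 (SD, n = 3 each, adjusted p = 0.116). Of the noncoding RNAs downstream in this cluster, Mirg fell from 1011 ± 301 to 630 ± 100, by a log2 change of -0.66 (adjusted p = 0.0241) that was -0.43 when library 1 was left out (adjusted p = 0.0406), and Rian stood at 4433 and 5257 (adjusted p = 0.114). Rian was higher in knockout once library 1 was left out (adjusted p = 0.0158).

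On proximal chromosome 6, Peg10 and Sgce start next to each other, are both paternally expressed, and went in opposite directions. Peg10, a retrotransposon-derived gene needed for the placenta, spans 4697306 to 4710516 and held 2629, 3638 and 2715 in wild type and 4521, 3683 and 4902 in knockout. Wild-type library 3 and knockout library 7 differed little. The log2 change of 0.55 (SE 0.14, adjusted p = 0.0141) was 0.49 without wild-type library 4 (adjusted p = 0.0631), 0.52 without knockout library 5 (0.054) and 0.46 without knockout library 8 (0.0507). Once the trend was removed it was 0.16 (adjusted p = 0.498).

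Sgce, which encodes epsilon-sarcoglycan of the cell membrane, spans 4624350 to 4697204 and held 1428, 1527 and 1380 in wild type and 1137, 1034 and 1090 in knockout. The groups did not overlap and each varied little, for a log2 change of -0.41 (SE 0.09, adjusted p = 0.00667), and -0.30 with the trend removed (adjusted p = 0.0838). The transcripts of this pair differ in length, at 6667 nt for Peg10 and 1776 nt for Sgce.

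Ppp1r9a, the actin-binding neurabin, maternally expressed in some tissues, spans 4853320 to 5115661 and held 1036, 1150 and 918 in wild type and 1447, 1581 and 1590 in knockout. All knockout libraries were higher, for a log2 change of 0.58 (SE 0.10, adjusted p = 0.00315), against 0.08 after removal of the trend (adjusted p = 0.571). Asb4, an adaptor of ubiquitin ligases, held 1384 to 1650 in wild type and 1561 to 1767 in knockout (adjusted p = 0.192). Casd1, a neighbour from the list of other imprinted genes, rose from 990 ± 45.5 to 1508 ± 51.2 (adjusted p = 0.00179, and 0.0317 with the trend removed).

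The Prader-Willi and Angelman region of central chromosome 7 also held calls in both directions. Ndn, a paternally expressed member of the MAGE family, spans 69493163 to 69494813 and held 6162, 4996 and 5219 in wild type and 4124, 4237 and 4416 in knockout. Its knockout libraries were all lower, for a log2 change of -0.35 (SE 0.10, adjusted p = 0.0181). The change was -0.26 without wild-type library 1 (adjusted p = 0.0755) and -0.33 without knockout library 5 (adjusted p = 0.0721), and it was -0.62 with the trend removed (adjusted p = 0.00588). The transcript length used for the trend, 3694 nt, is longer than the span given above, so the value of -0.62 is uncertain. Equal totals gave -0.25 (adjusted p = 0.0638), and quantile normalisation gave -0.23 (adjusted p = 0.0916).

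Mkrn3, a paternally expressed ubiquitin ligase of the makorin family known for its role in the timing of puberty, spans 69562479 to 69565025. It held 152, 140 and 133 in wild type and 219, 272 and 175 in knockout. Knockout library 8 was the nearest to wild type. The log2 change was 0.62 (SE 0.18, adjusted p = 0.0251) and 0.69 with the trend removed (adjusted p = 0.0302). Leaving out library 3 or 4 of wild type gave adjusted p-values of 0.052 and 0.0839. Leaving out library 5 or 7 of the knockout gave 0.0785 and 0.0888, the latter with a log2 change of 0.47.

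Ube3a, a ubiquitin ligase expressed from the maternal allele in neurons, spans 66484120 to 66562097 and held 544, 661 and 574 in wild type and 856, 1144 and 860 in knockout. All knockout libraries were higher, by 0.67 on the log2 scale (SE 0.14, adjusted p = 0.00484). After removal of the trend the change was -0.048 (adjusted p = 0.797), and its transcript is 9856 nt long with a GC content of 36.9%. Peg12, related to the Wnt pathway protein Frat, stood at 749 ± 45.6 and 753 ± 22.1, and Magel2, another MAGE family member, held 208 in wild-type library 1 and 70.3 to 148 in the other 5 libraries. Atp10a, a lipid-transporting ATPase next to Ube3a in the list of other imprinted genes, held 305 to 366 in wild type and rose to 517 to 588 in knockout (adjusted p = 0.00321, and 0.0187 with the trend removed).

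In the Kcnq1 cluster of distal chromosome 7 Cd81 and Tssc4 fell, and neither was called once the trend was removed. Cd81, a tetraspanin of the cell surface, spans 150238655 to 150253835 and held 15668, 15378 and 16095 in wild type and 12592, 12950 and 13095 in knockout. Both groups were tight and apart. The log2 change of -0.29 (SE 0.08, adjusted p = 0.0252) was not past the threshold when library 1 or 4 of wild type was left out (adjusted p = 0.0699 and 0.0898), nor when knockout library 5 was (0.101). The same held with equal totals (0.113) and quantile normalisation (0.643). Removing the trend turned it to 0.072 (adjusted p = 0.628).

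Tssc4 spans 150255273 to 150256992 and held 2795, 2377 and 2924 in wild type and 1980, 1605 and 2034 in knockout. Its groups did not overlap, and the log2 change was -0.53 (SE 0.12, adjusted p = 0.00706), and without the trend it was 0.00 (adjusted p = 0.999). Cdkn1c, a cell cycle inhibitor of the same cluster, fell from 12718 ± 3731 to 7712 ± 392, a log2 change of -0.68 (adjusted p = 0.0109). Its wild-type values were 17018 in library 1 and 10784 and 10351 in the others, and the change was -0.46 when library 1 was left out (adjusted p = 0.0086). After removal of the trend it was -0.23 (adjusted p = 0.34). The noncoding Kcnq1ot1, which silences the cluster on the paternal copy, held 315, 378 and 315 in wild type and 339, 681 and 339 in knockout. Knockout library 7 alone was high, and the log2 change of 0.35 did not pass (adjusted p = 0.282). Kcnq1, a potassium channel gene that Kcnq1ot1 overlaps, held 15.5 to 61.2 over the libraries, with a change of -0.85 (adjusted p = 0.129), of -1.18 without wild-type library 1 (adjusted p = 0.0294), and of -0.44 without wild-type library 3, which held the high value (adjusted p = 0.391). Nap1l4, Ascl2, Slc22a18 and Phlda2 did not pass, with log2 changes from -0.69 for Phlda2, which limits placental growth, to 0.08 for Ascl2, a trophoblast transcription factor. Ascl2 stood at 0.60 with the trend removed (adjusted p = 0.0619) and was higher at 0.70 with library 1 also left out (adjusted p = 0.0277). Phlda2 and Nap1l4, a histone chaperone, had every knockout library below every wild-type library, at 12.3 to 19.3 against 21.8 to 27.4 for Phlda2.

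Among imprinted genes outside these clusters, Nnat fell and Impact rose. Nnat, a paternally expressed membrane proteolipid (chromosome 2, 157385846 to 157388255), held 8550, 8832 and 9895 in wild type and 5628, 4977 and 6226 in knockout. The groups were well apart, and the log2 change was -0.70 (SE 0.10, adjusted p = 0.00187). The change was -0.14 with the trend removed (adjusted p = 0.374), and the transcript is the second shortest of the tested genes at 1213 nt. Nnat lies inside Blcap, an imprinted gene that stood at 1993 and 1689 (adjusted p = 0.059).

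Impact, a paternally expressed regulator of translation (chromosome 18, 13130761 to 13151457), held 713, 784 and 760 in wild type and 914, 1187 and 1001 in knockout. All knockout libraries were higher, and Impact changed by 0.45 on the log2 scale (SE 0.11, adjusted p = 0.0127), which came to 0.12 once the trend was removed (adjusted p = 0.469). Mest, a paternally expressed hydrolase of mesenchymal tissue, stood at 25581 ± 2001 and 26866 ± 1026 (SD, n = 3 each, adjusted p = 0.606). Its maternally expressed neighbour Copg2, a coat protein of vesicles, stood at 1872 ± 138 and 2088 ± 52.4 (adjusted p = 0.179, and 0.0482 with equal totals). Plagl1, a paternally expressed zinc finger factor that regulates other imprinted genes, held 6772, 5186 and 4531 in wild type and 5909, 8795 and 5799 in knockout. Library 1 and knockout library 7 were the highest of their groups. The log2 change of Plagl1 was 0.31 (adjusted p = 0.208), 0.47 without wild-type library 1 (adjusted p = 0.0402), 0.11 without knockout library 7 (adjusted p = 0.603) and -0.043 with the trend removed.

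The genes with either allele and Dcn did not pass. Gnas, which encodes the stimulatory G protein alpha subunit and other products of the locus, held 48794, 52837 and 47934 in wild type and 41086, 41986 and 40633 in knockout. Its knockout libraries were all lower, and the log2 change was -0.27 (SE 0.11, adjusted p = 0.0717). Quantile normalisation turned it to 0.04. The table gives 1 value for the locus, so its imprinted transcripts are not separated. Grb10, an adaptor that restrains insulin signalling, stood at 12828 ± 726 and 14445 ± 684 (adjusted p = 0.17, but 0.0424 with equal totals and 0.0131 with quantile normalisation). Ddc, an enzyme of amine synthesis, held 364 in wild-type library 1, 130 and 189 in the other wild-type libraries and 92.1 to 160 in knockout. Its log2 change was -0.85 (adjusted p = 0.0783), -0.45 without wild-type library 1 (adjusted p = 0.189) and -1.19 without wild-type library 3 (adjusted p = 0.0187). Dcn, the matrix proteoglycan decorin, held 8891 in wild-type library 1 and 3780 to 6527 in the other libraries, and its change went from -0.31 (adjusted p = 0.403) to 0.019 without that library. Nap1l5, a paternally expressed relative of nucleosome assembly proteins that lies inside Herc3, was low, at 16.7 ± 4.47 and 21.6 ± 8.17 (adjusted p = 0.565).

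Values were also divided by the length in kilobases of the longest protein-coding transcript (else the longest), as a rough guide to levels of different genes. The transcript counted may differ, and for some genes, Ndn and Rtl1 among them, this length exceeds the gene span in the deposited table. On this scale H19 was the highest of the 37 listed genes with a transcript length, at 39996 in wild type. It was followed by Gnas at 12631, Igf2 at 11669 and Cd81 at 10250. Peg3 stood at 54.3 per kilobase in wild type and 364 in knockout, Usp29 at 11.7 and 15.3, and Zim1 at 15.6 and 39.9. Peg3 was thus a modest member in wild type that came in knockout to a level between Impact and Igf2r, which stood there at 275 and 551.

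Of 36 further imprinted genes, 31 were in the table and 30 were tested. Of these, Atp10a, Casd1 and Sfmbt2 rose and 5 fell, namely Cdkn1c, Mirg, Mcts2, H13 and Commd1, which is 10% and 16.7% beside 17.3% and 17% of all genes. H13, a signal peptide peptidase, went from 4758 ± 179 to 3549 ± 360 (adjusted p = 0.00695), and Mcts2, which lies in an intron of H13, from 641 ± 79.9 to 452 ± 45.2. Commd1 was not past the threshold without wild-type library 1 (adjusted p = 0.0509). Without wild-type library 1, 5 of the 30 were higher and 5 lower (16.7% each), beside 15.5% and 14.3% of all genes. After removal of the trend 2 of 28 were higher (7.14%) and 4 lower (14.3%), beside 5.57% and 5.75% of all genes. The 4 were H13, Mirg, Commd1 and Zdbf2, and Cdkn1c and Mcts2 were no longer called. Zdbf2 had not been called with all libraries, at a log2 change of 0.28, and was higher without wild-type library 1 (0.40, adjusted p = 0.0286). It stood at -0.33 with the trend removed (adjusted p = 0.0456) and did not pass with library 1 also left out (-0.25, adjusted p = 0.0885).

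Among 15 genes that protect, write or erase imprints, 14 were tested, 8 rose and 0 fell at the adjusted threshold, and 0 had a lower value at an unadjusted p below 0.05 in limma. The share higher was 57.1%, beside 17.3% higher and 17% lower of all genes. Their median log2 change was 0.27, and 0.12 with the trend removed, and 6 were higher without wild-type library 1. Tet2, which oxidises methylated cytosine, rose from 387 ± 84.5 to 774 ± 62.5, Tet1 from 880 ± 98.6 to 1702 ± 411 and Tet3 from 1083 ± 172 to 1704 ± 43.4. Zfp445, a zinc finger protein that guards imprints, rose from a range of 1493 to 1691 to a range of 2470 to 2730, and Ctcf, which binds the control region between Igf2 and H19, from 2224 ± 240 to 2929 ± 173. Dnmt1, the maintenance methyltransferase, went from 5804 ± 339 to 6980 ± 297 (adjusted p = 0.0339, and 0.133 without wild-type library 1), and Setdb1 and Kdm1b rose by 0.27 and 0.46 on the log2 scale. Setdb1 was not past the threshold without wild-type library 1 (adjusted p = 0.09). Trim28 and Zfp57, which act together at imprints, stood at 30006 and 28098 (adjusted p = 0.505) and at 1815 and 1868 (adjusted p = 0.808). Once the trend was removed, Tet2 alone of the 14 was past the threshold (adjusted p = 0.029), which is 7.14% beside 5.57% of all genes.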

How the data were processed

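Per the file headers, the deposited table has 1 column of values for each of 6 libraries, and the authors deposited them as a signal, upper-quartile normalised pseudo-counts, with no reads. Per the submitters' processing notes, CASAVA 1.8.2, edgeR 2.6.2 and the build mm9 were used; which step each served is not given in the sources used here, nor is the annotation. All 6 columns were matched to libraries by name, and 0 were left over.

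Values were analysed as log2(value + 1), which understates changes of low genes, with limma 3.58.1 (trended prior, two-sided) in R 4.3.3 on 15116 genes with at least 10 in at least 3 libraries. Calls had a Benjamini-Hochberg adjusted p below 0.05 over these genes. An exact permutation test of 3 against 3 libraries cannot go below 0.1.

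The imprinted genes, the lists and the length and GC alternative were chosen with earlier results of these data known. Each imprinted gene was named, with values in every library where it passed; up to 8 called genes were named from the other lists. Alternatives were pseudocounts of 0.5 and 10, no filter or one at 50, median-of-ratios scaling, equal totals, quantile normalisation, each library left out, and removal in each library of a spline trend (4 degrees of freedom each) on length and GC content of the longest protein-coding transcript (else the longest) in GENCODE vM21, available for 14602 genes (96.6%) and not for Kcnq1ot1. Plots used Python 3.11.15 and matplotlib 3.10.9.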

Additional observations from a re-analysis of the deposited data

How the results depend on the processing

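No paired analysis was possible because the groups share no library numbers. Pseudocounts of 0.5 and 10, no filter, a filter at 50 and median-of-ratios scaling left each of the 37 genes (33 with the filter at 50) on its side of the threshold and in its direction. Of the 16 called genes, 11 kept their call when any 1 library was left out, and Peg3 and Zim1 kept theirs under every alternative run. Equal totals moved the median change of all genes from -0.03 to 0.07.

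With 1 library left out, 3032 to 5041 of all genes changed (5180 with all), 5 to 10 imprinted genes were higher and 6 to 9 lower, and 2 to 6 paternal genes were higher. Quantile normalisation left 5077 genes changed, with 9 imprinted genes higher (4 paternal, 4 maternal) and 3 lower (2 paternal, 1 maternal). With the length and GC trend removed, 1654 genes changed, 3 imprinted genes were higher (2 paternal, 1 maternal) and 4 lower (3 paternal, 1 maternal). With wild-type library 1 also left out, 1765 genes changed, 4 imprinted genes were higher (2 paternal, 2 maternal) and 5 lower (3 of them paternal). The cause of these shifts was not tested.

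Signs turned as follows. With the trend removed, the log2 change was -0.14 for Usp29, -0.14 for Copg2, -0.10 for Grb10, -0.043 for Plagl1, -0.048 for Ube3a, -0.044 for Asb4, 0.072 for Cd81 and 0.24 for Slc22a18. With library 1 also left out it was -0.083 for Usp29, 0.046 for Dio3, -0.013 for Mest, -0.10 for Copg2, -0.078 for Grb10, 0.46 for Magel2, -0.13 for Ube3a, -0.11 for Asb4, 0.021 for Cd81, 0.49 for Slc22a18 and 0.0072 for Dcn. Leaving out 1 library at a time gave -0.44 to 0.0021 for Meg3, -0.35 to 0.44 for Magel2, -0.042 to 0.043 for Peg12, -0.036 to 0.22 for Ascl2, -0.58 to 0.046 for Slc22a18 and -0.56 to 0.019 for Dcn. Equal totals gave 0.041 for Magel2, and quantile normalisation gave -0.021 for Peg12, 0.043 for Gnas and 0.0020 for Nap1l4. Of these genes, Ube3a and Cd81 were called with all libraries. Depth is unknown, so what it limits cannot be stated.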
